A study of Mus musculus with 23 samples.

Results

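The question addressed here was whether the difference in hippocampal gene expression between the 3xTg mouse model of Alzheimer's disease and its wild-type (WT) strain control was the same at 8 months of age as at 10 months after infusion of vehicle. Of the 23 RNA sequencing libraries of the series, the 16 of 4 groups were used, with 4 libraries in each group. The groups were WT mice of 8 months (WT-8M), 3xTg mice of 8 months (3xTg-8M), WT mice of 10 months under vehicle (WT-D) and 3xTg mice of 10 months under vehicle (3xTg-D). The 8-month mice had no operation. The 10-month mice carried an osmotic pump for 28 days that delivered 0.8% DMSO in artificial cerebrospinal fluid to the lateral ventricles. Age, surgery, infusion, DMSO and any difference in how the cohorts were bred or processed therefore form 1 factor, called the cohort, whose components cannot be told apart.

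The 3xTg mice carry human APP and tau transgenes with the APPSwe and tauP301L mutations, driven by the neuron-specific Thy1.2 element, together with a knock-in mutation at a further locus. The WT mice are labelled as C57BL/6J x 129S1, and they are the strain on which the knock-in was made and come from a separate stock, so a strain difference includes every background allele that differs. All animals were female and bred in-house. The titles of the 8-month libraries add an L before the tissue abbreviation that the 10-month titles lack, and the labels do not explain it. Nothing in the labels ties a library to a litter, and p-values measure the spread between these libraries.

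A difference of differences is what was tested. For each gene, the strain effect (the log2 fold change of 3xTg against WT) was estimated at 8 months and at 10 months, and the interaction is the 10-month effect minus the 8-month effect. A negative interaction means that the strain effect was lower at 10 months. The WT groups of the 2 ages were not tested against each other, nor were the 3xTg groups. A gene is termed called where edgeR's quasi-likelihood test gave an adjusted p (Benjamini-Hochberg) under 0.05, over the 16108 genes that passed the filter on low counts. Values are CPM (gene counts scaled to the same library total) in each library, in the order of replicates 1 to 4.

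Gene counts per library ranged from 12.8M to 36.7M at 8 months, and from 13.9M to 17.6M at 10 months. Replicates correlated across genes with r of 0.986 to 0.992. The labelled tissue carried its defining genes, with the dentate granule cell marker Prox1 at 76 to 149 CPM and the CA1 marker Wfs1 at 86.2 to 147 CPM in all 16 libraries. A pair of libraries stood apart. In 3xTg-8M replicate 4, the slope of expression on transcript length was 0.883, against 0.993 to 1.06 in the others, and Ttr, a marker of choroid plexus, was at 322 CPM. In 3xTg-D replicate 3, several stress genes were high. The summed level of the choroid plexus list was 138 CPM in that library and 128 CPM in 3xTg-D replicate 1, against 43.2 to 52.2 CPM in WT-D. The choroid plexus list summed to 44.6 to 66.4 CPM in WT-8M, 38 to 392.1 CPM in 3xTg-8M and 47.5 to 138 CPM in 3xTg-D. Of its markers, Aqp1, Folr1 and Kcne2 were at most at 2.53 CPM in any library. Kcnj13, Clic6, Prlr and Kl reached 3.87, 6.07, 9.53 and 36.1 CPM. Mean Ttr was 90.7 CPM in 3xTg-8M against 15.6 CPM in WT-8M, and 45.3 CPM in 3xTg-D against 7.14 CPM in WT-D.

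In all, 10 genes were called in the interaction, which is 0.0621% of those tested, 6 of them with a higher and 4 with a lower strain effect at 10 months. A nominal p under 0.05 was reached by 1511 genes, or 9.38%. The strain effect itself was called for 636 genes at 8 months (3.95%), of which 274 were higher (1.7%) and 362 lower (2.25%) in 3xTg, and for 263 genes at 10 months (1.63%), of which 124 were higher (0.77%) and 139 lower (0.863%). The WT and 3xTg libraries did not overlap for 11.1% of genes at 8 months and 8% at 10 months. The count at 8 months fell to 322 without 3xTg-8M replicate 1, to 356 without WT-8M replicate 1 and to 376 without 3xTg-8M replicate 2.

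Both strain effects rest on separate animals, so their calls can be set side by side. A gene was classed as kept where both strain effects were called with the same sign and the interaction was not called. There were 140 kept genes (0.869% of those tested), 53 higher and 87 lower in 3xTg, which is 22% of the 8-month calls and 53.2% of the 10-month calls. Of the 636 genes called at 8 months, 85.8% had the same sign at 10 months, where over all genes tested the share was 55.2%, and 48.3% had the same sign with a nominal p under 0.05. Of the 263 called at 10 months, 93.5% had the same sign at 8 months and 73% had it with a nominal p under 0.05. A strain difference was classed as lost (called at 8 months and in the interaction, smaller at 10 months) for 6 genes, or 0.0372%. It was classed as reversed (called in the interaction, nominal p under 0.05 with opposite signs at both ages) for 4 genes, or 0.0248%. A gained difference, called at 10 months and in the interaction, was found for 0 genes. With 1 library left out, the lost genes were 4 to 12 (10 without WT-8M replicate 4 and 12 without WT-D replicate 1), the reversed genes 2 to 5 (2 without 3xTg-D replicate 2 or 3) and the gained genes 0 or 1 (1 without WT-8M replicate 2, 3 or 4, 3xTg-8M replicate 2 or 3, or WT-D replicate 1). A further 486 genes (3.02%) were called at 8 months and 123 (0.764%) at 10 months with no call of the interaction, and these are not shown to differ between the ages. The plot of both strain effects places the called genes among all others.

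**Figure D1:**
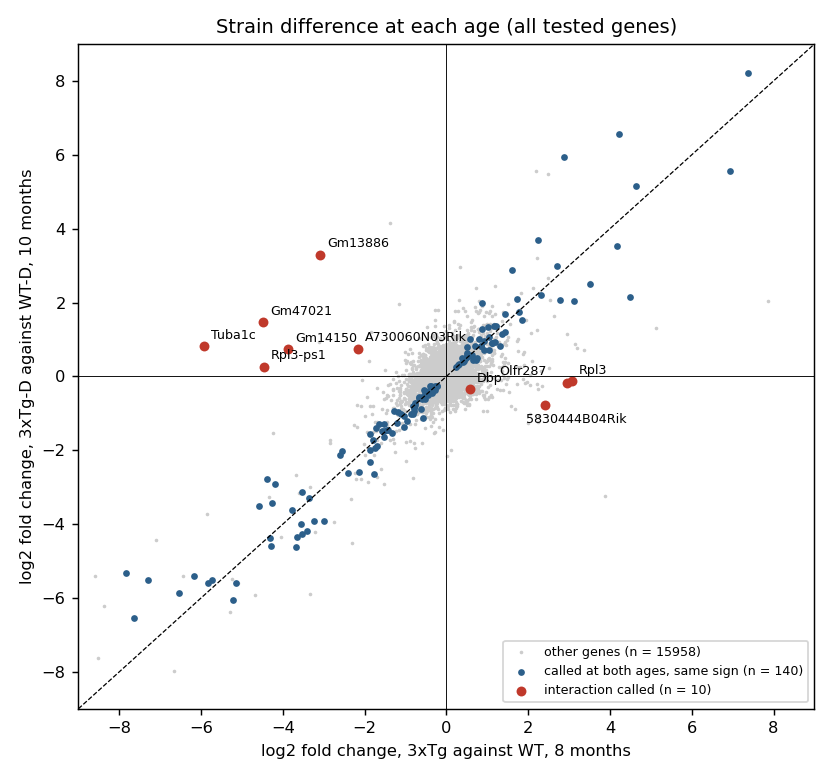
Strain effect of each tested gene at 8 months (horizontal axis) and at 10 months under vehicle (vertical axis), both as log2 fold change of 3xTg against WT. Kept genes, genes called in the interaction and all other genes differ in colour. The 140 kept genes lie near the diagonal, and the lost and reversed genes share the colour of the called interactions.

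Most of the called interactions were in genes that share sequence with another gene. Rpl3 encodes a protein of the large ribosomal subunit. On chromosome 15 (chr15:80077791-80091868, GRCm38), it was at 5.33, 4.95, 4.28 and 4.25 CPM in WT-8M and at 40.2, 38.1, 35.2 and 45.4 CPM in 3xTg-8M. It was at 42.9, 42.8, 41.2 and 44.3 CPM in WT-D and at 41.8, 35.4, 43.1 and 36.8 CPM in 3xTg-D. The WT-8M libraries alone were low, and the 10-month groups overlapped. The strain effect was 3.07 at 8 months and -0.12 at 10 months (adjusted p 6.54e-14 and 0.628), with an interaction of -3.19 (SE 0.13, edgeR adjusted p 5.33e-12).

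Rpl3-ps1, a processed copy of Rpl3 on the X chromosome, had the opposite pattern. It was at 27.6, 27.4, 24.3 and 22.3 CPM in WT-8M and at 0.825, 0.848, 1.43 and 1.67 CPM in 3xTg-8M, while all 8 libraries of 10 months lay between 0.639 and 1.44 CPM. The interaction was 4.73 (SE 0.35, edgeR adjusted p 1.40e-07). Of the stretches of 31 bases in Rpl3-ps1, 94.7% also occur in Rpl3, so a read can be assigned to either only where they differ, and the values of both genes are uncertain. Their summed level was 30.1 ± 3.05 CPM in WT-8M, 40.9 ± 4.48 CPM in 3xTg-8M, 43.7 ± 1.08 CPM under vehicle in WT-D and 40.3 ± 3.58 CPM under vehicle in 3xTg-D (SD, n = 4 each).

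Tubulin genes showed a like pattern. Tuba1c (chr15:99029891-99038110), which encodes an alpha-tubulin of microtubules, was at 26.9, 26.9, 25 and 24.1 CPM in WT-8M and at 0.458, 0.385, 0.15 and 0.6 CPM in 3xTg-8M. At 10 months all 8 libraries were at 0.174 to 0.714 CPM. The strain effect of -5.93 at 8 months was 0.83 at 10 months, with an interaction of 6.75 (SE 0.49, edgeR adjusted p 1.14e-07). Gm14150 (chr2:151458956-151460309), of whose 31-base stretches 72.4% occur in Tuba1b, was at 3.99, 3.66, 3.6 and 4.56 CPM in WT-8M and between 0.0771 and 0.375 CPM in 3xTg-8M. In WT-D it had 3 counts or fewer per library, taken as the detection floor, so the interaction was called (edgeR adjusted p 0.000802) but its size is not given. Tuba1c shares 49% of its 31-base stretches with Tuba1b and 43% with Tuba1a, so both values are uncertain. The paralogs themselves were not called, with interactions of -0.27 for Tuba1b and -0.23 for Tuba1a (adjusted p 0.55 and 0.58).

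Olfr287 and A730060N03Rik were the other calls on chromosome 15. Olfr287, annotated as an olfactory receptor (chr15:98206971-98221056), was at 0.0751 to 0.244 CPM in WT-8M and at 1.62, 1.23, 1.28 and 1.6 CPM in 3xTg-8M. It was at 2.56, 1.87, 2.4 and 2.4 CPM in WT-D and at 1.37, 1.64, 2.2 and 3.02 CPM in 3xTg-D, with an interaction of -3.13 (SE 0.41, edgeR adjusted p 0.000802). A730060N03Rik is a long non-coding RNA (chr15:78119706-78144142) that shares 14.2% of its 31-base stretches with Cacng2, and whether the counts used strand is not given. It was at 4.1, 2.72, 4.73 and 4.95 CPM in WT-8M and at 0.675 to 1.13 CPM in 3xTg-8M. At 10 months it was at 0.349, 0.869, 0.933 and 0.983 CPM in WT-D and at 0.935, 1.9, 1.01 and 1.41 CPM in 3xTg-D. Its strain effect was -2.16 and then 0.75, an interaction of 2.92 (SE 0.42, edgeR adjusted p 0.00269). In both genes the WT-8M libraries stood apart from the 12 others.

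The 3 weakest calls were low in counts. Gm13886 (edgeR adjusted p 0.0139), 5830444B04Rik (interaction -3.18, adjusted p 0.0239) and Gm47021 (adjusted p 0.0493) were at most at 2.37 CPM in any library. Gm13886 shares 18.4% of its 31-base stretches with Tardbp and Gm47021 shares 48.4% with Dazap2, and neither Tardbp nor Dazap2 was called in the interaction. WT-D for Gm13886, and both 10-month groups for Gm47021, were at the detection floor, so no size of these interactions is given. The call of Gm13886 ended without WT-D replicate 4 (adjusted p 0.0538) or 3xTg-D replicate 3 (0.0901). That of 5830444B04Rik ended in 6 of the 16 fits that left out 1 library (adjusted p up to 0.0999, without WT-8M replicate 1), and that of Gm47021 in 13 (up to 0.225). The other 7 called interactions held in all 16 of these fits.

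**Figure D2:**
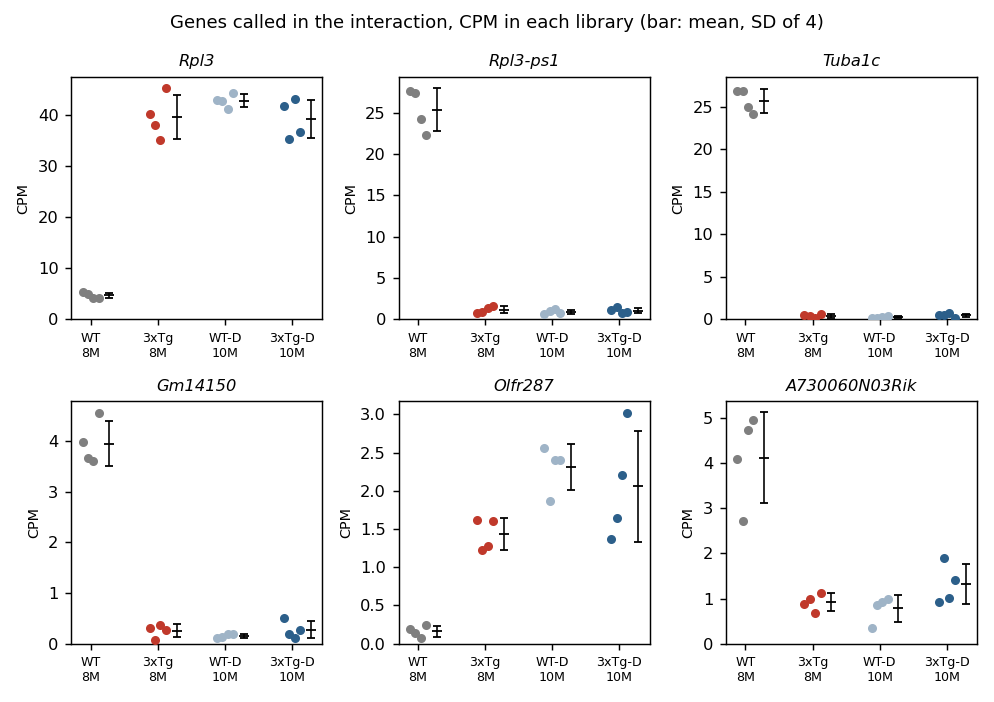
Level in each library (CPM, linear axis) of 6 genes called in the interaction, in the groups WT-8M, 3xTg-8M, WT-D and 3xTg-D, with 4 libraries a group. In Rpl3 and Olfr287 the WT-8M libraries lie below all others, and in Rpl3-ps1, Tuba1c, Gm14150 and A730060N03Rik they lie above all others.

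Of the 10 called genes, 4 are annotated as protein-coding, 4 as pseudogenes and 2 in other categories, where pseudogenes were 2.58% of all genes tested. Among the 140 kept genes, 74.3% were protein-coding and 12.9% were pseudogenes. Called interactions were also near each other in the genome. A stretch of chromosome 15 from 74 Mb to its end, chosen after the values were seen, held 412 tested genes and 4 of the 10 calls. In this stretch 7.28% of genes had an interaction p under 0.01, against 2% elsewhere and 2.14% of all genes. The strain effect there was called for 34 genes (8.25%) at 8 months and for 1 (0.243%) at 10 months, while elsewhere it was 3.84% and 1.67%. Of those 34 genes, 58.8% had the same sign at 10 months, against 87.4% of the 8-month calls elsewhere. Other stretches carried strain differences at both ages. On chromosome 13 between 60 and 70 Mb, of 76 genes tested 13 were called at 8 months (3.95% of all genes) and 18 at 10 months (1.63% of all genes), with 8 kept (0.869% of all genes).

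Among the protein-coding genes of this chromosome 15 stretch, Ttll12, a member of the tubulin tyrosine ligase-like family, was at 6.45, 6.67, 8.56 and 7.77 CPM in WT-8M and at 14.7, 13.6, 13.8 and 13.1 CPM in 3xTg-8M. It was at 12.6, 10.8, 11.5 and 12.2 CPM in WT-D and at 12.4, 13.7, 9.64 and 14.3 CPM in 3xTg-D. The groups were apart at 8 months and overlapped at 10 months, and the strain effect was 0.92 (edgeR adjusted p 6.20e-05) and then 0.08. The interaction of -0.84 missed the threshold (SE 0.16, adjusted p 0.0703). Pou6f1, a transcription factor gene, had strain effects of 0.24 and -0.13 and an interaction of -0.37 (SE 0.07, adjusted p 0.0703). Pnpla3, which encodes a lipase of lipid droplets, had strain effects of 1.10 and 0.12, and Cyb5r3, the reductase that supplies electrons to desaturases, of 0.33 and -0.04.

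In the opposite direction, genes called at 10 months came near a call of the interaction but did not reach it. Hddc3, which encodes a hydrolase of the HD domain family, was at 29.6, 18.7, 29 and 31.2 CPM in WT-8M and at 24, 19.6, 29.3 and 23.6 CPM in 3xTg-8M. At 10 months it was at 30.7, 29.5, 29.1 and 27.8 CPM in WT-D and at 9.13, 9.81, 13 and 13.6 CPM in 3xTg-D. Only the 3xTg-D libraries were low, and the strain effect was -0.18 and then -1.36 (edgeR adjusted p 6.50e-05), with an interaction of -1.18 (SE 0.22, adjusted p 0.0555). Zfp846, a zinc finger gene, had strain effects of 0.03 and 0.52 (interaction 0.49, SE 0.10, adjusted p 0.0703). Wdfy4, which takes part in antigen cross-presentation by dendritic cells, had effects of -0.45 and 0.89 (interaction 1.34, SE 0.28, adjusted p 0.102). No called gene therefore belongs to the gained class, although 859 genes had a lower and 652 a higher strain effect at 10 months at a nominal p under 0.05.

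Dbp was the called interaction with the highest expression. The circadian clock is a feedback loop in which BMAL1 (the product of Arntl) and CLOCK bind E-box sequences and drive Per, Cry and Nr1d genes, whose products repress them, and in which output factors such as DBP bind D-boxes and pass the rhythm on to other genes. Transcripts of Dbp and the Per genes vary over the day in most tissues, brain included. The mice were kept on a reversed light cycle, and the time of day at which each was killed is not given in the sources used here.

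Dbp (chr7:45705088-45710203) was at 34.4, 32.8, 38.5 and 29.1 CPM in WT-8M and at 46.6, 50.5, 44.7 and 57.7 CPM in 3xTg-8M. It was at 56.6, 64.3, 59 and 59 CPM in WT-D and at 38.4, 54.2, 45.3 and 50.2 CPM in 3xTg-D. The groups did not overlap at either age, and their order was reversed. The strain effect was 0.57 at 8 months (SE 0.10, edgeR adjusted p 0.00251) and -0.34 at 10 months (SE 0.10, adjusted p 0.107), and the interaction was -0.91 (SE 0.14, adjusted p 0.00961, 95% interval -1.22 to -0.61). The call held in all 16 fits with 1 library left out, at adjusted p of 0.00437 to 0.0378. Dbp overlaps Sphk2, with which it shares 16.9% of its 31-base stretches, so part of its reads may be counted elsewhere.

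Other clock genes had interactions that were not called. The repressor Per2 was at 25.1, 31.7, 30.6 and 32.4 CPM in WT-8M and at 47.8, 48.9, 39.8 and 28.2 CPM in 3xTg-8M, and at 42.3, 36, 36.6 and 37.1 CPM in WT-D and 29.8, 34.1, 40.2 and 36.4 CPM in 3xTg-D. Its strain effects were 0.47 and -0.11, with an interaction of -0.58 (SE 0.20, p 0.00912, edgeR adjusted p 0.457), and the groups overlapped at both ages. Ciart, a repressor of the CLOCK and BMAL1 complex, had effects of 0.32 and -0.32 and an interaction of -0.63 (SE 0.19, adjusted p 0.396). Per1 had effects of 0.13 and -0.23. Arntl had strain effects of the opposite sign at 8 months, at 41.2, 40.5, 43.2 and 44.5 CPM in WT-8M and 29.4, 30.4, 32.2 and 35.3 CPM in 3xTg-8M, and at 29.2 to 37.8 CPM in all 8 libraries of 10 months. Its strain effect was called at 8 months (-0.42, adjusted p 0.00361) and was -0.02 at 10 months, with an interaction of 0.40 (SE 0.11, adjusted p 0.342). Usp2, a deubiquitinase under clock control, was called at 10 months (-0.30, adjusted p 0.0382), a call that ended in 7 of 16 fits with 1 library left out (up to 0.135, without WT-D replicate 4).

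Of the 23 clock genes tested, 1 was called in the interaction (Dbp), and 6 had a lower and 1 a higher strain effect at 10 months at a nominal p under 0.05, which is 30.4% of the list against 9.38% of all genes. The median strain effect of the list was 0.06 at 8 months and -0.07 at 10 months, and its median interaction was -0.16, with the median of all genes at 0.00. Without 3xTg-8M replicate 4 the nominal counts were 8 lower and 1 higher. Clock genes share their regulators and are not independent of each other.

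The 250 bases before the start of Dbp and of Ciart (RefSeq, GRCm38.p6) are shown because Dbp carried the clock call and Ciart had the lowest adjusted p of the repressors named here. Dbp lies on the plus strand of chromosome 7 (chr7:45704997-45705246), and Ciart on the minus strand of chromosome 3 (chr3:95882229-95882478). Capitals mark the E-box CACGTG, read on both strands, of which the Ciart window holds 3 and the Dbp window none.
Dbp: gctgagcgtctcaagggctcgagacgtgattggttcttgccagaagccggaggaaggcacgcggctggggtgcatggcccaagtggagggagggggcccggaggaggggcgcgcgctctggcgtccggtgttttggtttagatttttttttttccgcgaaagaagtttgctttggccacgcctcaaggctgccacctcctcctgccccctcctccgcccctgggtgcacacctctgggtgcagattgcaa
Ciart: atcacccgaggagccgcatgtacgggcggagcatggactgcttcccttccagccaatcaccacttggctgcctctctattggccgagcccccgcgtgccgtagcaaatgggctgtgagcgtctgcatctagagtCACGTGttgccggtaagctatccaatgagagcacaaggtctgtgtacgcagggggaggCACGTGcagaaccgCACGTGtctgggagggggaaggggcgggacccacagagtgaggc
The E-box occurred in 5 of the 19 clock genes with a window (26.3%), in 9.67% of all tested genes with one, and in 2 of the 6 clock genes with a window and a nominal interaction p under 0.05 (Ciart and Per1). The D-box TTANGTAA, which holds no E-box, occurred in 0 of these 6. A match only describes these letters and this window, and no match says nothing of sites elsewhere in the gene.

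Endoplasmic reticulum (ER) stress genes were called at 8 months only. When unfolded proteins build up in the ER, the sensors IRE1, PERK and ATF6 act through the factors XBP1, ATF4 and cleaved ATF6 to raise chaperones, disulfide isomerases and co-chaperones. Of the 33 tested genes of this list, 10 were higher in 3xTg at 8 months (background 1.7%) and 0 were lower. These 10 include the heat shock genes Dnajb1 and Hspa1b, which encode cytosolic chaperones and are not specific to the ER. At 10 months 0 were called in either direction and 6 were higher at a nominal p under 0.05 (background 5.72%). None of the 33 was called in the interaction (edgeR). At a nominal p under 0.05, 2 were lower (6.06% against 5.33% of all genes) and 0 higher. A loss of the strain difference is therefore not shown for the group. Its median strain effect was 0.19 at 8 months and 0.09 at 10 months.

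The ER chaperone BiP, encoded by Hspa5, was at 316, 351, 365 and 373 CPM in WT-8M and at 602, 609, 421 and 469 CPM in 3xTg-8M. It was at 327, 355, 303 and 326 CPM in WT-D and at 345, 356, 538 and 395 CPM in 3xTg-D. The groups were apart at 8 months and overlapped at 10 months, where 3xTg-D replicate 3 was the highest. Its strain effect was 0.58 (SE 0.14, edgeR adjusted p 0.0246) and then 0.32 (SE 0.14, adjusted p 0.352), and the interaction of -0.26 had a 95% interval of -0.67 to 0.14. Xbp1, the transcription factor of the IRE1 branch, was at 66.3, 74.3, 78.7 and 70.4 CPM in WT-8M and at 104, 110, 89.1 and 97.6 CPM in 3xTg-8M. At 10 months it was at 74.2, 77.1, 75.8 and 75.4 CPM in WT-D and at 75.8, 79.8, 116 and 77.3 CPM in 3xTg-D. In 3xTg-D only replicate 3 was above 79.8 CPM, and the interaction was -0.26 (SE 0.15, adjusted p 0.595).

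Sdf2l1, a cofactor of ER chaperones, was at 6.07, 6.02, 9.16 and 9.72 CPM in WT-8M and at 15.6, 16.8, 13.9 and 11.9 CPM in 3xTg-8M, against 7.66 to 9.77 CPM in WT-D and 7.91, 7.92, 14.5 and 9.14 CPM in 3xTg-D. Its strain effect was 0.91 (edgeR adjusted p 0.011) and then 0.21, with an interaction of -0.70 (SE 0.28, p 0.0212, adjusted p 0.487). Creld2, which encodes an ER-resident protein induced by ER stress, had strain effects of 0.72 (adjusted p 0.00692) and 0.34, and the secreted ER stress factor gene Manf of 0.47 and 0.12. The disulfide isomerase genes Pdia4 and Pdia6 had effects of 0.51 and 0.32 at 8 months and of 0.32 and 0.16 at 10 months, and all of these genes were above 0 at both ages. The 8-month calls of Creld2 and Sdf2l1 held in every fit with 1 library left out. Creld2 lies in the stretch of chromosome 15 from 74 Mb described above. There, 8.25% of genes were called at 8 months and 0.243% at 10 months. The count of 10 fell to 2 without WT-8M replicate 1 or 3xTg-8M replicate 1, to 3 without 3xTg-8M replicate 2 and to 5 without WT-8M replicate 2. Without 3xTg-D replicate 3, the median strain effect at 10 months was 0.01, with 0 of the 33 called at 10 months. In that fit the strain effect of 10 genes was lower at 10 than at 8 months at a nominal interaction p under 0.05. The share of all genes in that fit is not given, so this count has no background.

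The windows before 2 of these genes (RefSeq, GRCm38.p6) are shown for the ER stress element, the site of ATF6 and NF-Y, searched on both strands as CCAAT and CCACG with 9 bases between them. Hspa5 is on the plus strand (chr2:34771840-34772089), as is Creld2 (chr15:88819396-88819645), and capitals mark the element, which is reversed in Creld2.
Hspa5: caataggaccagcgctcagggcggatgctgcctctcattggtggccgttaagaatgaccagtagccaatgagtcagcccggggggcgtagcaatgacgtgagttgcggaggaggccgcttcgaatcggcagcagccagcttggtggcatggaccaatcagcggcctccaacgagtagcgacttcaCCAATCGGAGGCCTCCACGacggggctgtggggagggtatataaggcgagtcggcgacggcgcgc
Creld2: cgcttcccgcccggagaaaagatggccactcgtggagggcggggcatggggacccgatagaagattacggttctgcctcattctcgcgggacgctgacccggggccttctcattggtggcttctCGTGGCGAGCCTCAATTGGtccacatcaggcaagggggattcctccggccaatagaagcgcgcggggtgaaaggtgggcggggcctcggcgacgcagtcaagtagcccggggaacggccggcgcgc
The element occurred in 0.153% of tested genes with a window, in 8 of the 28 genes of the list with one (28.6%) and in 4 of the 9 that were called at 8 months and had one (44.4%). These 4 were Hspa5, Creld2, Pdia6 and the co-chaperone gene Dnajc3.

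**Figure D3:**
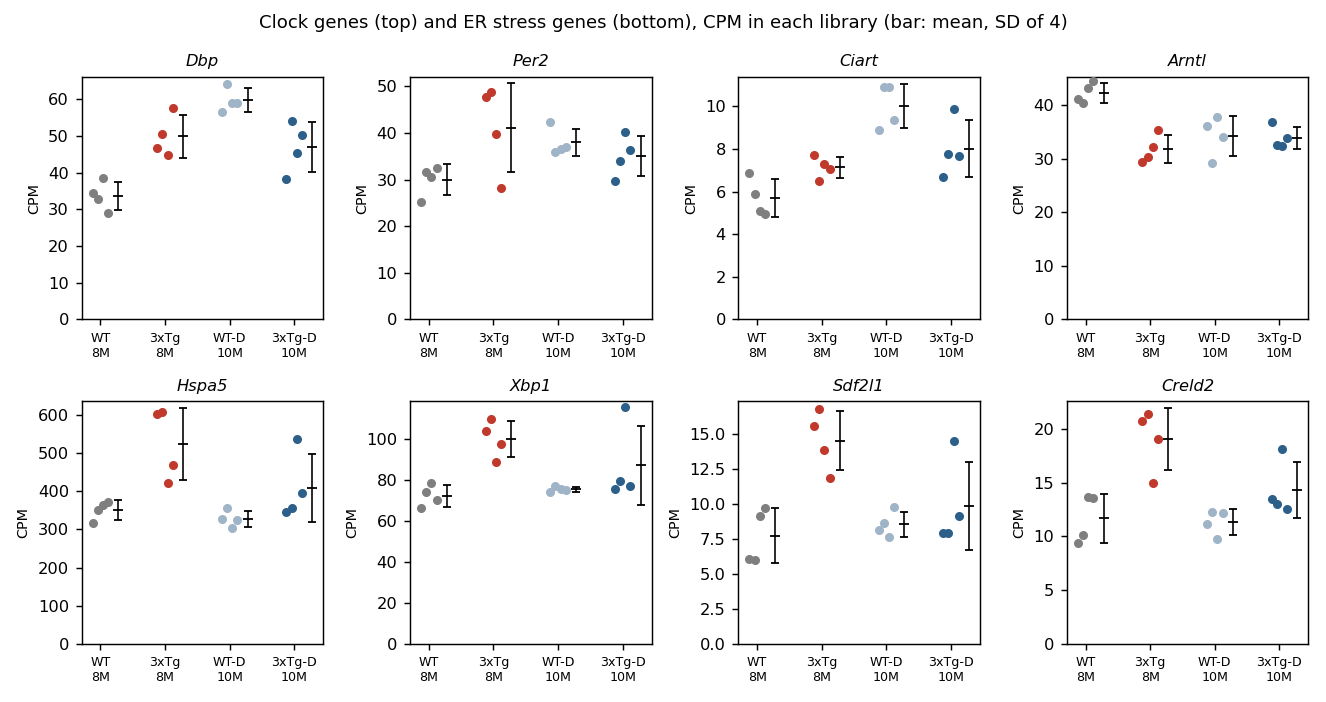
Level in each library (CPM) of 4 clock genes (Dbp, Per2, Ciart, Arntl) and 4 ER stress genes (Hspa5, Xbp1, Sdf2l1, Creld2) in the 4 groups, with 4 libraries a group and bars at the group mean. Dbp is higher in 3xTg at 8 months and lower at 10 months, and in Xbp1 3xTg-D replicate 3 (116 CPM) is the highest 10-month library.

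The loci tied to the transgenes kept their strain difference. Thy1, whose regulatory element drives both transgenes, was at 523, 597, 628 and 622 CPM in WT-8M and at 2220, 1820, 2130 and 2320 CPM in 3xTg-8M, against 601, 625, 623 and 636 CPM in WT-D and 1960, 1940, 1540 and 1690 CPM in 3xTg-D. All 8 libraries of 3xTg were above all of WT, with strain effects of 1.84 and 1.52. The interaction of -0.32 had a nominal p of 0.0136 and was not called (SE 0.12, edgeR adjusted p 0.467). App was at 1630 to 1760 CPM in WT-8M, 2150 to 2360 CPM in 3xTg-8M, 1640 to 1730 CPM in WT-D and 2090 to 2410 CPM in 3xTg-D. Its strain effects were 0.42 and 0.41, and the interaction of -0.01 had a 95% interval of -0.18 to 0.16. How reads from the human transgenes were assigned is not given in the sources used here. Mapt (0.10 and 0.01) was not called at either age.

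Genes of neurons supplied both kept and single-age differences. C1ql2, a secreted synaptic organiser of dentate mossy fibres, was at 53.3, 62.1, 64.3 and 57.1 CPM in WT-8M and at 30.1, 27.8, 27.8 and 28.5 CPM in 3xTg-8M, against 67.2, 50.6, 53.2 and 77.6 CPM in WT-D and 23.7, 22.4, 27.3 and 22.8 CPM in 3xTg-D. It was lower in 3xTg by -1.05 and -1.37 on the log2 scale with no overlap at either age (edgeR adjusted p 6.60e-06 and 2.33e-07), and the interaction of -0.32 was not called (adjusted p 0.532). In bulk tissue, fewer cells of a type and less RNA per cell cannot be told apart. The receptor tyrosine kinase gene Kit was lower by -0.60 and -0.56. Gabra2, a GABA-A receptor subunit, was at 132, 273, 133 and 129 CPM in WT-8M and 361, 367, 377 and 385 CPM in 3xTg-8M, and at 117, 205, 125 and 97.2 CPM in WT-D and 414, 374, 276 and 331 CPM in 3xTg-D. In each WT group replicate 2 was well above the others. Its strain effects were 1.17 and 1.36, calls that ended in 7 and 6 of the 16 fits with 1 library left out (adjusted p up to 0.109, without WT-8M replicate 1).

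Genes of cell and synaptic adhesion were called mostly at 8 months. Such proteins, among them contactins, cadherins and the Slitrk family, sit in neuronal membranes and guide axons and join synapses. Of 65 tested, 9 were lower in 3xTg at 8 months (background 2.25%) and 1 at 10 months (background 0.863%), with a median strain effect of -0.12 and -0.01. The contactin partner Cntnap2 was lower at both ages, at 174, 190, 174 and 185 CPM in WT-8M, 151, 152, 152 and 142 CPM in 3xTg-8M. At 10 months it was at 186, 183, 188 and 174 CPM in WT-D and at 152, 159, 129 and 152 CPM in 3xTg-D. Its effects were -0.28 and -0.31, with no overlap at either age, and the interaction of -0.03 had a 95% interval of -0.21 to 0.15. Chl1, an adhesion molecule of the L1 family, had strain effects of -0.33 and 0.00 (interaction 0.33, SE 0.11, p 0.00852, edgeR adjusted p 0.457). The ephrin gene Efna5 had effects of -0.42 and 0.14 (interaction 0.56, SE 0.17, adjusted p 0.419), and its 8-month call ended in 12 of 16 fits with 1 library left out (up to 0.196, without WT-8M replicate 1).

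None of the 65 adhesion genes was called in the interaction (edgeR). At a nominal p under 0.05, 4 were higher (6.15%, background 4.05%) and 0 lower (background 5.33%). The count of 9 fell to 2 without WT-8M replicate 1, 3xTg-8M replicate 1 or 3xTg-8M replicate 2, to 4 without WT-8M replicate 2 or 3xTg-8M replicate 4, and to 5 without WT-8M replicate 4. These genes have long transcripts, and the length slope of 3xTg-8M replicate 4 stood apart. With a trend of length and GC content removed from each library, 2 genes were lower at 8 months and 3 at 10 months. The median strain effect was then -0.05 at both ages and the median interaction was 0.01. The cause of these changes in count and median was not tested.

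Genes of the ion channel list had a like count, with 4 of 65 lower at 8 months (background 2.25%) and 0 at 10 months (background 0.863%). The medians were -0.07 at both ages. The list was meant for voltage-gated channels, but its called member Kcnj3 encodes a G-protein-gated inward rectifier. The count of 4 fell to 1 without WT-8M replicate 1, 2 or 4 or 3xTg-8M replicate 2, and to 2 without 3xTg-8M replicate 4. The potassium channel gene Kcna4 had a strain effect of -0.54 (edgeR adjusted p 0.00145) and then -0.14 (interaction 0.40, SE 0.13, adjusted p 0.447), and its 8-month call held in every fit with 1 library left out. Kcna1 had effects of -0.33 and -0.03, and the 8-month calls of Kcna1, Kcnv1 and Kcnj3 ended in 4, 6 and 12 of these fits (up to 0.0932, 0.101 and 0.137). The interneuron gene Pvalb, which encodes the calcium buffer of fast-spiking cells, was called at 10 months (0.07 and then -0.36, adjusted p 0.048, interaction -0.43, SE 0.13, adjusted p 0.392), a call that ended in 12 of 16 such fits (up to 0.143, without WT-D replicate 3). Of the immediate-early genes, Bdnf, the neurotrophin gene, was called at 8 months (-0.37, adjusted p 0.0422) and Vgf, a neuropeptide precursor, at 10 months (-0.40, adjusted p 0.0147), calls that ended in 9 and 2 of such fits (up to 0.0982 and 0.0571). The strain effect of Bdnf at 10 months was the same -0.37 with an adjusted p of 0.0807, an example of a gene called at 1 age with an interaction of 0.00 (95% interval -0.30 to 0.31).

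Immune gene lists were above the median of all genes at both ages, with wide spread between libraries. Of 37 interferon-stimulated genes tested, 36 were higher in 3xTg at 8 months and 37 at 10 months. Of all 16108 genes, 8151 and 7803 were higher. The median strain effects were 0.62 and 0.97, but 2 and 1 genes passed the test as higher (background 1.7% and 0.77%). The mean centred log2 CPM of the list was -0.61 in 3xTg-8M replicate 3, below all WT-8M libraries (-0.57 to -0.26). In 3xTg-D replicate 1 it was -0.22, within the WT-D range (-0.43 to -0.12). Stat2, the transcription factor of interferon signalling, was kept (0.38 and 0.50, edgeR adjusted p 0.0421 and 0.014). Its call at 8 months ended in 8 of 16 fits with 1 library left out (up to 0.158, without 3xTg-8M replicate 1) and that at 10 months in 1 (0.0616, without 3xTg-D replicate 3). Mx1, an antiviral GTPase that many laboratory strains lack in functional form, was at 0.886, 0.771, 0 and 0.4 CPM in 3xTg-8M and at 0.144, 1.11, 0.179 and 1.34 CPM in 3xTg-D, and both WT groups were at the detection floor (up to 0.0717 and 0.174 CPM). The groups overlapped at both ages. Its mean was at least 3.28-fold higher at 8 months, where it was called (adjusted p 0.0387), and it was not called at 10 months (adjusted p 0.175). The 8-month call ended in 7 of 16 such fits (up to 0.178, without 3xTg-8M replicate 1). No gene of the interferon list was called in the interaction (0, with 2 higher at a nominal p under 0.05, 5.41% against 4.05% of all genes). The median interaction was 0.30, which became -0.08 without 3xTg-D replicate 4 and 0.67 without 3xTg-8M replicate 1. Without 3xTg-D replicate 1, 10 genes were called at 10 months.

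Microglia are the resident macrophages of the brain. Of 20 homeostatic microglia genes, 3 were higher at 8 months (background 1.7%) and 1 at 10 months (background 0.77%). The median strain effects of the list were 0.22 and 0.26, and 0 genes reached a nominal p under 0.05 in the interaction (background 9.38%). Tmem119 and the phagocytic receptor gene Mertk were called at 8 months (0.56 and 0.29), calls that ended in 10 and 8 of the 16 fits with 1 library left out (adjusted p up to 0.156 and 0.126), with effects of 0.31 and 0.18 at 10 months. Ccl6, a chemokine gene, had strain effects of -0.67 and 1.05, neither called, with an interaction of 1.72 (SE 0.41, p 0.000505, edgeR adjusted p 0.262) and overlapping groups at both ages. Among 21 complement genes, Cd59a, an inhibitor of the membrane attack complex, was at 5.76, 5.3, 4.88 and 4.35 CPM in WT-8M and 8.98, 8.78, 8.1 and 11.3 CPM in 3xTg-8M, and at 3.31, 2.47, 0.999 and 1.84 CPM in WT-D and 10.2, 8.7, 8.04 and 7.38 CPM in 3xTg-D. It was higher in all 3xTg libraries, by 0.87 and 1.98, with an interaction of 1.10 that was not called (SE 0.30, p 0.00143, adjusted p 0.312).

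Astrocyte genes gave no call in the interaction either (edgeR, 0 of 24 in the reactive list, with 0 at a nominal p under 0.05, background 9.38%). The reactive list had medians of 0.23 and 0.44, with 2 genes higher at 10 months (background 0.77%), among them the cytokine receptor gene Osmr (0.34 and 0.73, adjusted p 0.252 and 0.022). Against the list, Serpina3n, a secreted protease inhibitor induced in reactive astrocytes, was at 204, 240, 160 and 265 CPM in WT-8M and 58.8, 42.1, 39.5 and 50.6 CPM in 3xTg-8M, and at 51.2, 46, 246 and 265 CPM in WT-D and 59.7, 46.2, 63.6 and 67.3 CPM in 3xTg-D. The WT-D libraries fell into a low pair and a high pair. The strain effect was -2.18 (adjusted p 0.0354) and then -1.36 (adjusted p 0.274), and the 8-month call ended in 8 of 16 fits with 1 library left out (up to 0.0931, without 3xTg-8M replicate 2).

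Fatty acid desaturation genes were called at 8 months only. Stearoyl-CoA desaturases, encoded by the Scd genes, make monounsaturated fatty acids from saturated ones. The study's interest in them rests in part on these 8-month libraries, so their direction at 8 months is not independent evidence. Scd1 was at 168, 167, 180 and 177 CPM in WT-8M and 140, 143, 141 and 118 CPM in 3xTg-8M, and at 153, 168, 147 and 160 CPM in WT-D and 135, 130, 169 and 150 CPM in 3xTg-D. The groups were apart at 8 months and overlapped at 10 months. Its strain effect was -0.35 (edgeR adjusted p 0.0127) and then -0.11 (adjusted p 0.662), with an interaction of 0.24 (SE 0.11, p 0.0373, adjusted p 0.512). Scd3 had effects of -0.99 (adjusted p 0.00184) and -0.45 and an interaction of 0.54 (SE 0.25, p 0.0402, adjusted p 0.516). Fads6 was called at 8 months (-0.35, ending in 5 of 16 fits with 1 library left out) and Cyb5r3 was higher (0.33), while Scd2, Fads1, Fads2, Fads3, Degs1 and Cyb5a were called at neither age. Of the 10 genes tested, 1 was higher and 3 were lower at 8 months (background 1.7% and 2.25%). At 10 months 0 were called (background 1.63%), a share at which 10 genes hold few or no calls. In the interaction 0 were called, and 2 were higher and 1 lower at a nominal p under 0.05 (background 4.05% and 5.33%).

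Other lipid genes with a small interaction p were spread over several steps. The triglyceride synthesis gene Dgat2 was called at 8 months (0.26 and then -0.07, interaction -0.34, SE 0.08, p 0.000818, edgeR adjusted p 0.267), a call that ended without WT-8M replicate 1 (0.0636) or replicate 2 (0.0503). Gpam, the first enzyme of glycerolipid synthesis, had effects of -0.18 and 0.12, and Idi1, an isomerase of the sterol pathway, of -0.55 and 0.27 (interaction 0.82, SE 0.24, adjusted p 0.392). The sterol desaturase gene Sc5d was called at 10 months (0.31, adjusted p 0.0131), a call that ended without 3xTg-D replicate 2 (0.0529), and its 8-month effect was 0.08. The cholesterol list had median strain effects of 0.11 at both ages, and the fatty acid synthesis list of -0.02 and -0.01.

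Nuclear genes of oxidative phosphorylation had small interaction p-values in 1 direction, with no call. They encode subunits of the respiratory chain and ATP synthase. Of 79 tested, 18 (22.8%) had a lower strain effect at 10 months at a nominal p under 0.05 (background 5.33%) and 0 a higher one (background 4.05%), the median strain effects were 0.10 and -0.08, and the median interaction was -0.18. None was called in the interaction (edgeR). Without 3xTg-8M replicate 4 the count was 9 and the medians were -0.01, -0.08 and -0.07. The length slope of 0.883, the Ttr level of 322 CPM and the share of 30.9% of counts in lines that name no gene stood apart in that library. Their part in the result was not tested. Cytosolic ribosomal protein genes had medians of 0.06 and -0.06 with an interaction of -0.12, which was -0.02 without it.

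Single members of both lists differed between the strains far more than their lists. Cox7c, a subunit of cytochrome c oxidase, was at 9.45, 7.81, 11.5 and 10.1 CPM in WT-8M and 5.99, 6.47, 6.83 and 7 CPM in 3xTg-8M, and at 12.6, 13.4, 8.73 and 9.16 CPM in WT-D and 5.25, 4.51, 5.18 and 5.06 CPM in 3xTg-D. It was kept (-0.57 and -1.13), and its 8-month call ended in 5 of 16 fits with 1 library left out (edgeR adjusted p up to 0.107, without 3xTg-8M replicate 1). The ribosomal genes Rplp0 (-1.20 and -1.26) and Rpl29 (1.31 and 0.83) were kept too. Rpl34 was at 3.3 to 4.78 CPM in WT-8M and 28.5 to 47.3 CPM in 3xTg-8M, and at 3.6, 5.61, 28.2 and 28.6 CPM in WT-D and 27.7 to 32.1 CPM in 3xTg-D. Of the WT-D libraries, 2 were far below 3xTg-D and 2 were within its range, and the interaction of -2.26 was not called (SE 0.73, adjusted p 0.457). Cox7c, Rplp0, Rpl29 and Rpl34 share 31-base stretches with other loci (19.3%, 35%, 30.9% and 9.54% with the closest one), so their values are uncertain.

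**Figure D4:**
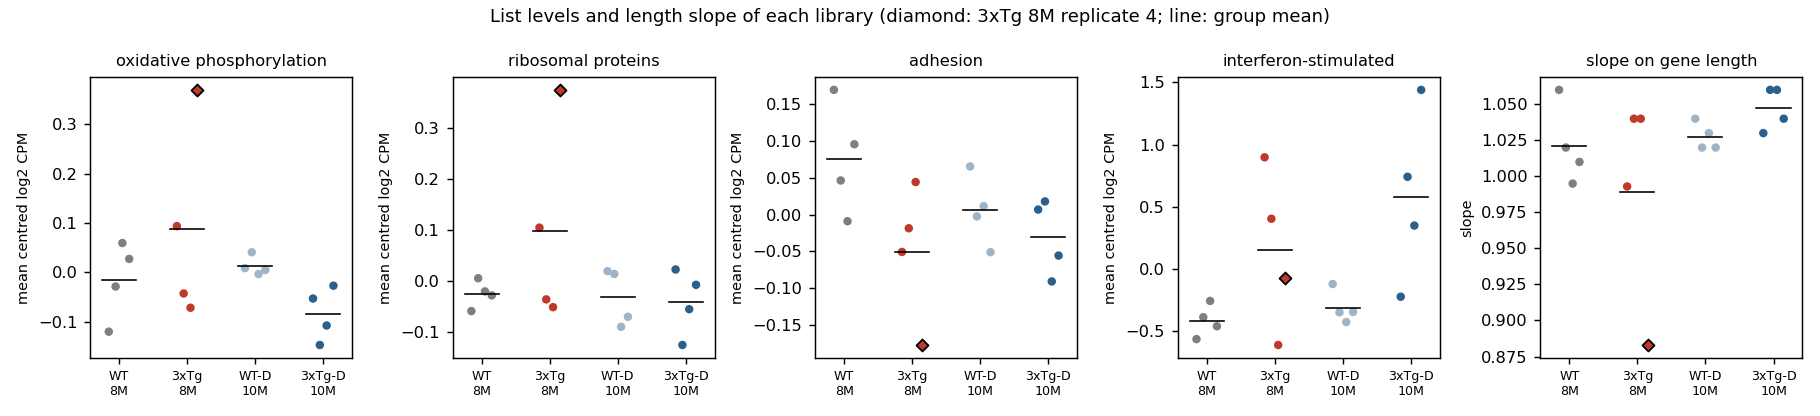
Mean centred log2 CPM of the gene lists for oxidative phosphorylation, ribosomal proteins, adhesion and interferon response, and the length slope, in each library of the 4 groups, with 3xTg-8M replicate 4 as a diamond. That library is the highest for oxidative phosphorylation (0.37) and the lowest for the length slope (0.883).

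The largest kept differences were in genes that were near absent in 1 strain. Gm8423 had at most 3 counts in every WT library and was at 6.36, 5.62, 5.25 and 8.66 CPM in 3xTg-8M and 7.55, 7, 6.37 and 6.05 CPM in 3xTg-D, at least 41.3-fold higher at 8 months and at least 35.5-fold higher at 10 months. The chemokine gene Cxcl13, which attracts B cells, was at 5.16, 2, 0.3 and 0.267 CPM in 3xTg-8M, with WT-8M at the detection floor. It was at least 12.3-fold higher at 8 months, a bound that was 5.46-fold without 3xTg-8M replicate 1, and its strain effect at 10 months was 5.56. Its calls ended in 5 of 16 fits with 1 library left out at each age (edgeR adjusted p up to 0.118, without WT-8M replicate 1). Ccr1, a chemokine receptor gene, was higher by 4.17 and 3.53, and Trim12a, of the tripartite motif family of antiviral factors, was at least 19.1-fold higher at 10 months. In the other direction, A830036E02Rik was at 29.3, 18, 16.5 and 15.7 CPM in WT-8M and at 0 to 0.15 CPM in 3xTg-8M, at least 106-fold lower, and its strain effect at 10 months was -6.55. Gm35082, Gm6916 and Rps13-ps1 were at least 10.3-fold, 17.8-fold and 17.4-fold lower at 8 months and at least 16.6-fold, 13-fold and 16.7-fold lower at 10 months. None of these was called in the interaction, and Gm8423, Gm35082, Gm6916, Rps13-ps1, A830036E02Rik and Trim12a share sequence with other loci and are uncertain.

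Across the 42 gene lists, the interaction was called for 1 gene in the clock list (Dbp) and 1 in the ribosomal list (Rpl3), and for 0 genes in the other 40. Among the immune and glial lists, the highest medians at both ages were those of interferon, MHC class I (0.26 and 0.32), homeostatic microglia and reactive astrocytes. The medians were also positive at both ages for complement (0.16 and 0.17), inflammatory signalling (0.12 and 0.16), activated microglia (0.13 and 0.08) and homeostatic astrocytes (0.03 and 0.06). In 4 lists, at least 4 genes were called at 8 months and at most 1 at 10 months. They were ER stress (33 genes tested), adhesion (65), ion channels (65) and desaturation (10). Over all genes tested, 3.95% were called at 8 months and 1.63% at 10 months. At the latter share, lists of this size hold few or no called genes. A further 8 lists had 1 to 3 called genes at 8 months and 0 at 10 months. Among them were activated microglia (3 of 25), triglyceride and lipid droplet (2 of 28), homeostatic astrocytes (2 of 22) and glutamate receptors (2 of 48). None of these lists had a called interaction. No list had called genes at 10 months and a called gain. Choroid plexus genes had medians of 0.88 and 0.52 with 0 called at either age. With a choroid plexus score added to the fit, 11 genes were called in the interaction, including all 10 of the above.

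**Figure D5:**
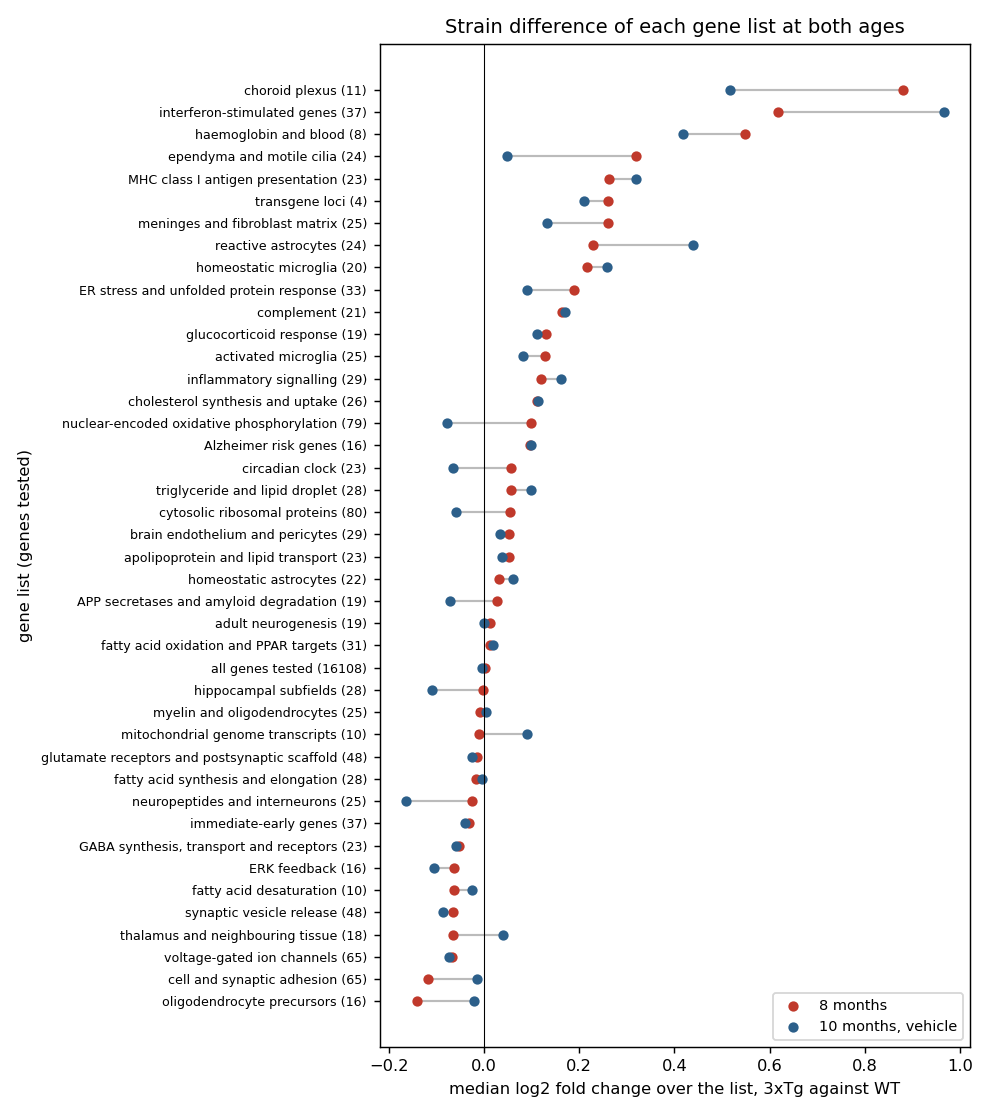
Median strain effect (log2 fold change of 3xTg against WT) of each gene list at 8 months and at 10 months under vehicle, with the median of all genes near 0. Interferon-stimulated genes have the highest median at 10 months (0.97), and oxidative phosphorylation genes change from 0.10 to -0.08.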

How the data were processed

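Hippocampal RNA was sequenced from 1 end after poly(A) selection with unique molecular identifier adapters. The authors trimmed reads with Trimmomatic 0.35, aligned them with STAR 2.5.1b to GRCm38 (Gencode M23) and deposited raw counts per gene, without normalisation, filtering or pooling. Strand setting and collapsing of identifiers are not given in the sources used here. Lines that name no gene (24.7% to 30.9% of all counts in a library) were left out.

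The 16 libraries were grouped by strain, age and treatment as the labels give them, and fitted together in edgeR 4.0.16 (R 4.3.3) with filterByExpr, TMM, a robust quasi-likelihood fit (12 residual degrees of freedom) and Benjamini-Hochberg adjustment over 16108 of 55335 genes. The study tested pairs of groups and not this interaction. CPM are deposited counts scaled to the same total of gene counts per library. A group with 3 counts or fewer in every library is at the detection floor, and a fold against it is a lower bound that covers counting error only, as PCR reads are not independent molecules. List scores use log2 CPM with a prior count of 2. The test was checked on simulated counts.

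Named genes are the called interactions, the extremes of kept genes, list members called or at an interaction p under 0.01, and the genes of 3 lists, plus others chosen after their values were seen. The members and the 42 lists were chosen with earlier results of these data known. Results on some listed genes are not reported here. Lists were described by counts and medians, with no set test. Shared sequence is the share of 31-base stretches of a gene's transcripts found in those of another gene. Promoter windows come from RefSeq (GRCm38.p6). Alternatives were DESeq2 1.42.0 (size factors and Wald test), no filter, all 23 libraries, each age fitted alone, p under 0.01, a replicate block, a choroid plexus covariate, a length and GC correction, and leaving out each library.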

Additional observations from a re-analysis of the deposited data

Results flagged for a closer look

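A strain effect that differed between the ages by a test of the difference itself was found in 10 genes. The interactions on the log2 scale were 6.75 for Tuba1c, 6.38 for Gm13886, 5.96 for Gm47021, 4.73 for Rpl3-ps1, 4.60 for Gm14150 and 2.92 for A730060N03Rik. Those of Gm13886, Gm47021 and Gm14150 are fitted values with at least 1 group of 10 months at the detection floor, depend on the prior count and are no measure of size. The negative ones were -0.91 for Dbp, -3.13 for Olfr287, -3.18 for 5830444B04Rik and -3.19 for Rpl3.

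In groups of 4 libraries, a library was singled out where its gap to the nearest other exceeded Dixon's critical share of the range of the group at the 95% level. This happened in 44 of 594 groups of the 153 named genes (7.41%), where chance gives about 1 in 20.

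The library 3xTg-D replicate 3 was singled out most often. It was high for Xbp1 (116 CPM, others 75.8 to 79.8), Creld2 (18.2 CPM, others 12.6 to 13.5), Sox10 (44.9 CPM, others 28.4 to 30.7), Abca7 (26.1 CPM, others 13.7 to 15.4), Ccn1 (5.24 CPM) and Cyb5a (43.3 CPM). It was low for Mapt (474 CPM), Bin1 (187 CPM) and Atp5d (84.3 CPM). The library 3xTg-8M replicate 4 was low for Scd1 (118 CPM, others 140 to 143), Kcna1 (52.9 CPM, others 71.4 to 72.9), Cntnap2 (142 CPM) and Picalm (187 CPM), and high for Cyb5r3 (62.1 CPM) and Ccl6 (2.2 CPM).

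Among WT-8M libraries, replicate 1 was high for A830036E02Rik (29.3 CPM), Chl1 (477 CPM) and Idi1 (3.93 CPM) and low for Bpgm (54.3 CPM) and Mapt (499 CPM). Replicate 2 was high for Gabra2 (273 CPM, others 129 to 133), Ccn1 (7.74 CPM) and Trim12a (1.08 CPM, others 0) and low for Hddc3 (18.7 CPM) and Gm47021 (1 CPM). Replicate 3 was low for Cd33 (6.16 CPM), and replicate 4 was high for Hif3a (5.64 CPM) and Casp4 (0.348 CPM). In 3xTg-8M, replicate 1 was high for Bank1 (1.83 CPM), replicate 2 for Col6a3 (11.5 CPM, others 3.45 to 4.4) and replicate 3 for Mme (11.1 CPM).

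Among WT-D libraries, replicate 1 was high for Per2 (42.3 CPM) and Egr4 (14 CPM) and low for Abca7 (13.4 CPM) and Dnah5 (8.43 CPM). Replicate 2 was high for Iyd (2.74 CPM). Replicate 3 was high for Rpl29 (15.9 CPM) and low for Cr1l (18.5 CPM). Replicate 4 was high for Nptx1 (643 CPM), Scarb1 (26.4 CPM) and Cxcl13 (0.246 CPM). In 3xTg-D, replicate 1 was high for Nr4a1 (34.7 CPM), replicate 2 for Adgrl3 (97.3 CPM) and replicate 4 for Iyd (4.85 CPM).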

How the results depend on the processing

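The 10 interaction calls were 22 with no filter on low counts, 17 with all 23 libraries in 1 fit and 20 with the DESeq2 Wald test, and these included all 10. They were 344 at an unadjusted p under 0.01, the study's threshold, and 7 to 16 with 1 library left out, where 16 came without WT-D replicate 1. The 636 calls at 8 months were 411 with each age fitted on its own libraries, 1372 at an unadjusted p under 0.01 and 322 to 712 with 1 library left out. The 263 at 10 months were 397 with the DESeq2 Wald test, 781 at an unadjusted p under 0.01 and 193 to 296 with 1 library left out. The 140 kept genes were 83 with each age fitted alone, 313 at an unadjusted p under 0.01 and 105 to 142 with 1 library left out. The 6 lost, 4 reversed and 0 gained genes were 13, 8 and 1 with no filter and 13, 5 and 2 with the DESeq2 Wald test. The causes were not tested. A block of consecutive animal numbers at 10 months gave 594, 252, 8 and 142 for these counts. Same-numbered libraries of WT-D and 3xTg-D did not deviate together over all genes (r of -0.069 to 0.039). With 4 libraries a group, this cannot exclude pairing that affects some genes. DESeq2 size factors gave 644, 265, 10 and 142, a choroid plexus score as covariate 593, 187, 11 and 115, and a length and GC correction 642, 352, 11 and 179. One direction reversed: the interaction of Cdh10 was -0.0053 after the length and GC correction (edgeR adjusted p 0.996). Over all settings, 3677 values of named genes kept direction and side of the threshold, 461 were no longer past it and 18 came past it. With 4 libraries a group, strain effects in genes near the floor of 3 counts have lower bounds only.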
